A study of Mus musculus with 6 samples.

Results

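Core neural stem cell identity genes were followed as a set of 9 members, Nes, Vim, Sox2, Sox1, Sox9, Pax6, Prom1, Msi1 and Msi2, out of 27179 gene records counted in every library. They were chosen by name as markers of neural stem cells, matched to the deposited Entrez gene numbers, and all 9 had enough counts to be tested, among 14207 tested genes. Neural stem cells divide and can give rise to neurons, astrocytes and oligodendrocytes. In culture they are kept dividing by EGF and bFGF, and they are recognised by a filament network of nestin and vimentin, by SOX and PAX transcription factors, by prominin-1 at the surface and by the Musashi RNA-binding proteins.

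RNA was sequenced from 3 Smchd1 null libraries and 3 wild type libraries. The null cells were homozygous for MommeD1, an allele of the chromatin silencing gene Smchd1 that the labels give as null, and the wild type cells carried Smchd1 unchanged. Both groups were male, of the strain C57BL/6 x FVB/N, derived from E14.5 brains and grown attached in medium that held EGF and bFGF at 20 ng/ml each. The labels do not say whether replicates came from separate embryos, so p-values measure only the spread between these libraries, which may be technical. The comparison asks whether cells without Smchd1 keep the expression of the genes by which this cell type is recognised.

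The null libraries held 18608881 to 19137666 counts and the wild type libraries 19504879 to 23253367. Wild type replicate 3 stood apart from the rest. The record with Entrez number 100861531, which the gene table used here does not name, made up 44.6% of this library, against 2.11% to 5.90% of each of the others. The 6 records above 1% of any library, 100861531 among them, together made up 58.3% of this library, against 5.84% to 11.7% of the others. Scaling by TMM, which sets libraries level over the bulk of genes, left it an effective depth of 10.1 M counts, against 21.3 to 25.8 M elsewhere. Its sample name carries the number 14, next to 11, 12 and 13 of the null libraries, while wild type replicates 1 and 2 carry much higher numbers. The labels do not say what these numbers mean. Smchd1 had 30.3, 31.1 and 27.9 CPM (counts per M TMM-scaled counts) in null replicates 1, 2 and 3. It had 271, 260 and 232 CPM in wild type replicates 1, 2 and 3, so all 6 labels matched the level of Smchd1.

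Related genes can share reads, so the longest stretch of identical letters between each member and its nearest relatives was read from GENCODE M21 transcripts (GRCm38, the assembly of mm10). The windows below, all coding sequence written 5′ to 3′, show the longest identical stretch in capitals with up to 20 bases on each side. They are given because they bear on how far a count of Sox2 can be told from one of Sox1, and Msi1 from Msi2. How reads were in fact assigned between these genes was not tested. Sox9 is set beside its relative Sox10.
Sox2: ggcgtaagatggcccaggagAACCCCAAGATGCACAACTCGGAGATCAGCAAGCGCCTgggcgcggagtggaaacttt
Sox1: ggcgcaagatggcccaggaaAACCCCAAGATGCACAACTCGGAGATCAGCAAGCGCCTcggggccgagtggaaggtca
Msi1: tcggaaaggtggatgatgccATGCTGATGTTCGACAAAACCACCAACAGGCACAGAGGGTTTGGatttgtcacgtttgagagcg
Msi2: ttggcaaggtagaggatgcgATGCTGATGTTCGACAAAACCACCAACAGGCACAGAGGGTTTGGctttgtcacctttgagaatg
Sox9: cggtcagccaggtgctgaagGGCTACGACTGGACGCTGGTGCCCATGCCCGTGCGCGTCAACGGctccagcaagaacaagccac
Sox10: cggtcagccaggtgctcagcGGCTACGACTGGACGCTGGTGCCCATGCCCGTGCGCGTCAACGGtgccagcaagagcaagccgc

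The identical stretch was 38 bases between Sox2 and Sox1, and 44 bases between Msi1 and Msi2 and between Sox9 and Sox10. Between Sox1 and Sox3, the third gene of the same SOX group, it was 45 bases. No stretch of 50 bases was shared in any of the 11 pairs of relatives compared, and between Nes and Vim the longest was 12 bases. The read length is not given in the sources used here, so reads shorter than these stretches could still be split between such relatives.

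Per kilobase of the deposited gene length, the members spanned from the most abundant messages of the cell to modest ones. Vim, the type III intermediate filament protein that assembles together with nestin, was highest, at 1141 ± 37.6 RPKM in null and 1185 ± 97.5 RPKM in wild type libraries (mean ± SD, n = 3 each). It ranked 25 of the 14207 tested genes. Nes, the large intermediate filament protein of neural progenitors, came next at 193 ± 5.85 RPKM in null and 210 ± 11.5 RPKM in wild type libraries, rank 230. Sox2, the SOX transcription factor needed to keep neural progenitors undifferentiated, followed at 113.2 ± 0.0862 RPKM in null and 108 ± 7.21 RPKM in wild type libraries, rank 476.

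Msi2 stood at 60.6 ± 0.713 RPKM in null and 65.5 ± 8.15 RPKM in wild type libraries. Sox9 stood at 23.6 ± 0.695 RPKM in null and 22.6 ± 6.72 RPKM in wild type libraries. The 5 most abundant members kept this order with no overlap between neighbours over the 6 libraries. Prom1, Sox1, Pax6 and Msi1 formed a lower group between 3.88 and 8.05 RPKM, in which each gene overlapped the next, so their order is not set beyond the spread between libraries. Msi1 was counted over 1551 bases, while its longest GENCODE transcript has 3133, and Vim over 1834 bases against 2926, so a level per length depends on the gene model used.

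**Figure D1:**
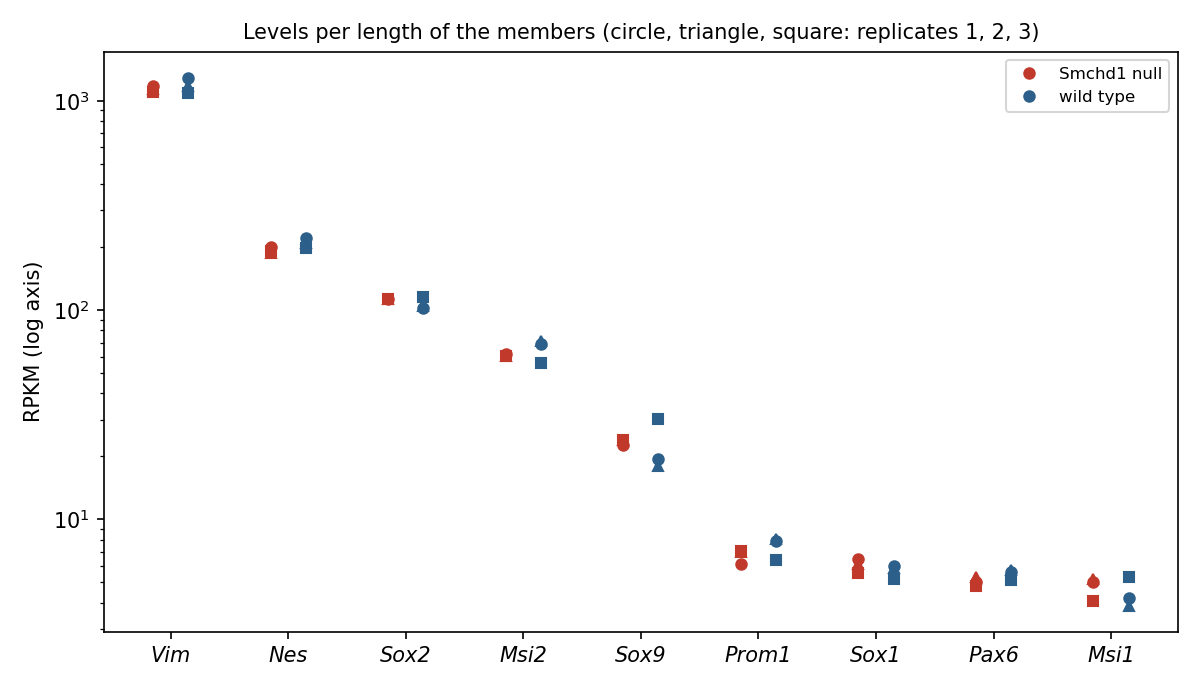
RPKM of each member on a log axis, in order of the mean over the 6 libraries, with Smchd1 null libraries in red left of wild type libraries in blue. Vim, Nes, Sox2, Msi2 and Sox9 are separated from each other, and Prom1, Sox1, Pax6 and Msi1 lie together between 3.88 and 8.05 RPKM.

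No member passed the test between Smchd1 null and wild type cells. With edgeR's quasi-likelihood test at an adjusted p threshold of 0.05, 0 of 9 were called, where 0.577% of all tested genes were called. DESeq2 also called 0 members, where it called 2.86% of genes, and limma-voom 0, where it called 1.02%. In edgeR 0 of the 9 had an unadjusted p under 0.05, where 18.6% of all tested genes did. All 9 members had overlapping groups, where the groups did not overlap for 22.0% of tested genes. The median log2 fold change of the members was -0.056, beside 0.0013 for all tested genes. The 95% intervals below give the size of change that these libraries leave possible for each gene.

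Nes lies on chromosome 3 (87971093 to 87980451, mm10, plus strand). It had 1224, 1154 and 1174 CPM in null replicates 1, 2 and 3, against 1359, 1280 and 1219 CPM in wild type replicates 1, 2 and 3. Null replicate 1 lay just above wild type replicate 3, and the other 2 null libraries lay below every wild type library. The log2 fold change was -0.12 ± 0.074 (SE), with a 95% interval from -0.29 to 0.048 and an adjusted p of 0.390 (edgeR).

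Vim, on chromosome 2 (13574311 to 13582826, plus strand), had 2159, 2095 and 2021 CPM in null libraries, against 2360, 2158 and 2004 CPM in wild type libraries. The null libraries lay within the wild type range, whose lowest value was wild type replicate 3. The log2 fold change was -0.056 ± 0.086, with an interval from -0.25 to 0.14 (edgeR adjusted p = 0.727). Both filament genes were counted deeply, with at least 12285 counts for Nes and 20195 for Vim in any library, so counting error was at most 0.902% and 0.704%. The ratio of Vim to Nes RPKM in the same library was 5.90 ± 0.156 in null and 5.64 ± 0.155 in wild type libraries (mean ± SD, n = 3 each).

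Sox2 is a single-exon gene on chromosome 3 (34649995 to 34652461, plus strand) that lies inside the long noncoding gene Sox2ot, with 0 exon bases shared in GENCODE M21. It had 278 CPM in each null library, against 252, 258 and 285 CPM in wild type replicates 1, 2 and 3. The null libraries lay between wild type replicates 1 and 2 on one side and replicate 3 on the other. Their SD of 0.212 CPM, or 0.0761% of the mean, was smaller than the counting error of up to 1.30% in those libraries. The log2 fold change was 0.072 ± 0.068, with an interval from -0.083 to 0.23 (edgeR adjusted p = 0.561).

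Sox1, a relative of Sox2 that marks early neural fate, lies on chromosome 8 (12395519 to 12399555, plus strand). It had 26.1, 24.6 and 22.4 CPM in null libraries, against 24.3, 23.6 and 21.0 CPM in wild type libraries. The groups interleaved, and the log2 fold change was 0.080 ± 0.092 with an interval from -0.13 to 0.29 (edgeR adjusted p = 0.636). In each library Sox2 was well above Sox1 per length, with a Sox2 to Sox1 ratio of 18.8 ± 1.47 in null and 19.1 ± 2.78 in wild type libraries. Gm25239, a microRNA gene on the same strand, shares 86 exon bases with Sox1 in GENCODE M21.

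Sox9, a SOX factor used both in neural stem cells and in the start of glial fate, was the member with the widest spread among wild type libraries. It lies on chromosome 11 (112782210 to 112787757, plus strand) and had 94.4, 99.2 and 99.5 CPM in null libraries, against 80.3, 75.0 and 125.7 CPM in wild type replicates 1, 2 and 3. The null libraries all lay between wild type replicate 3 above and wild type replicates 1 and 2 below. The coefficient of variation was 2.95% in null and 29.8% in wild type libraries, with counting error of at most 2.81%. Its log2 fold change was 0.071 ± 0.18, with an interval from -0.36 to 0.50 (edgeR adjusted p = 0.845).

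Pax6, the paired-box and homeodomain factor of dorsal forebrain progenitors, lies on chromosome 2 (105668896 to 105698410, plus strand). It had 18.5, 19.5 and 17.7 CPM in null libraries, against 20.7, 21.2 and 18.9 CPM in wild type libraries. Only null replicate 2 reached into the wild type range, above wild type replicate 3. The log2 fold change was -0.13 ± 0.088, with an interval from -0.33 to 0.067 (edgeR adjusted p = 0.419).

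**Figure D2:**
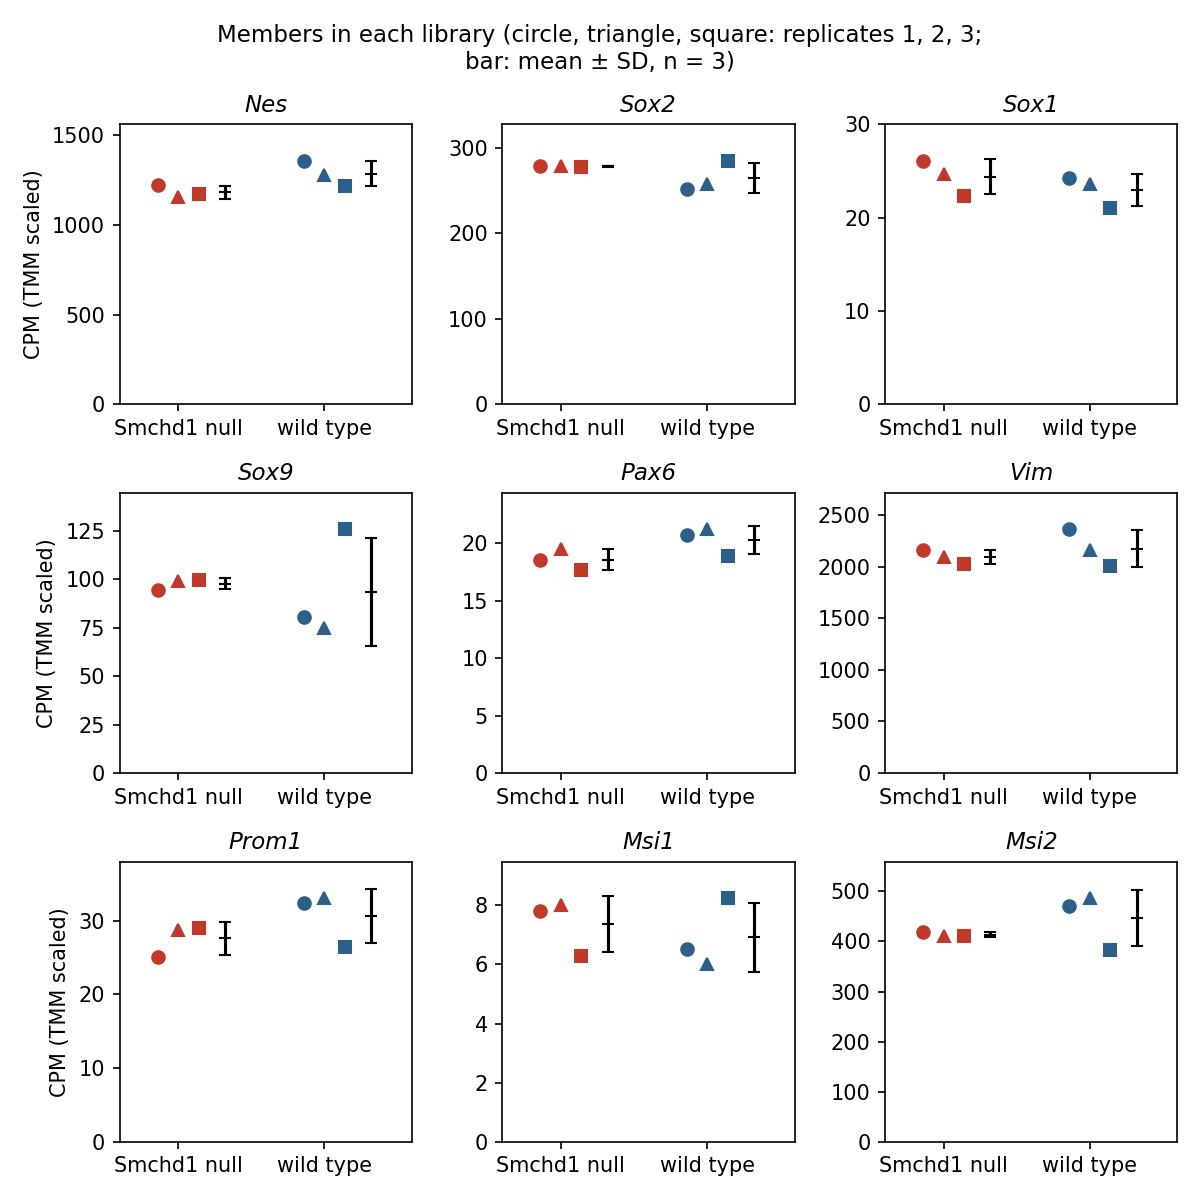
CPM of each member in each library, with the Smchd1 null group in red left of the wild type group in blue and the mean ± SD of 3 libraries beside each group. The groups overlap in all 9 panels, and for Sox9 wild type replicate 3 (square) lies at 125.7 CPM above every other library.

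Prom1 encodes prominin-1, also called CD133, a membrane protein of cell protrusions that is used to sort neural stem cells. It lies on chromosome 5 (43993621 to 44102047, minus strand) and had 25.04, 28.8 and 29.1 CPM in null libraries, against 32.4, 33.0 and 26.4 CPM in wild type libraries. The null libraries lay below wild type replicates 1 and 2, and 2 of them lay above replicate 3. Its log2 fold change was -0.16 ± 0.10, with an interval from -0.39 to 0.080 (edgeR adjusted p = 0.418). An antisense GENCODE gene, Gm16401, shares 424 exon bases with Prom1, and reads of the pair cannot be told apart with a library kit that does not mark strand.

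Msi1 and Msi2 encode the Musashi proteins, which bind messenger RNAs and regulate their translation in stem cells. Msi1, on chromosome 5 (115359059 to 115455698, plus strand), had 7.80, 8.01 and 6.29 CPM in null libraries, against 6.51, 6.01 and 8.24 CPM in wild type libraries. Msi2, on chromosome 11 (88339382 to 88718306, minus strand), had 419, 410 and 411 CPM in null libraries, against 470, 486 and 383 CPM in wild type libraries. For Msi2 all null libraries lay between wild type replicate 3 below and wild type replicates 1 and 2 above, and for Msi1 they lay within the wild type range.

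The log2 fold change was 0.11 ± 0.16 for Msi1, with an interval from -0.26 to 0.48, and -0.11 ± 0.093 for Msi2, with an interval from -0.32 to 0.099 (edgeR adjusted p = 0.707 and 0.507). Msi1 rested on 83 to 171 counts a library, with counting error up to 10.98%, and Msi2 on at least 3859. Msi2 exceeded Msi1 per length in every library, with a Msi2 to Msi1 ratio of 12.9 ± 1.72 in null and 15.1 ± 4.07 in wild type libraries. The lowest ratio, 10.6, was in wild type replicate 3, and the highest, 18.4, in wild type replicate 2.

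How the members compared between genotypes turned on wild type replicate 3. Set against the mean of wild type replicates 1 and 2 on the log2 scale, that library stood at 0.70 for Sox9, 0.40 for Msi1 and 0.16 for Sox2. It stood at -0.32 for Msi2, -0.31 for Prom1, -0.19 for Sox1, -0.17 for Vim, -0.15 for Pax6 and -0.11 for Nes. Against the same base, the mean of the null libraries stood at 0.33 for Sox9, 0.23 for Msi1, 0.13 for Sox2 and 0.028 for Sox1. It stood at -0.21 for Msi2, -0.24 for Prom1, -0.11 for Vim, -0.18 for Pax6 and -0.16 for Nes. Both sets of differences share wild type replicates 1 and 2, so they are given side by side and not as support for each other. For Sox2, Sox9 and Msi2, 3 of 9 members, every null library lay between wild type replicate 3 and both other wild type libraries, as it did for 20.3% of all tested genes.

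**Figure D3:**
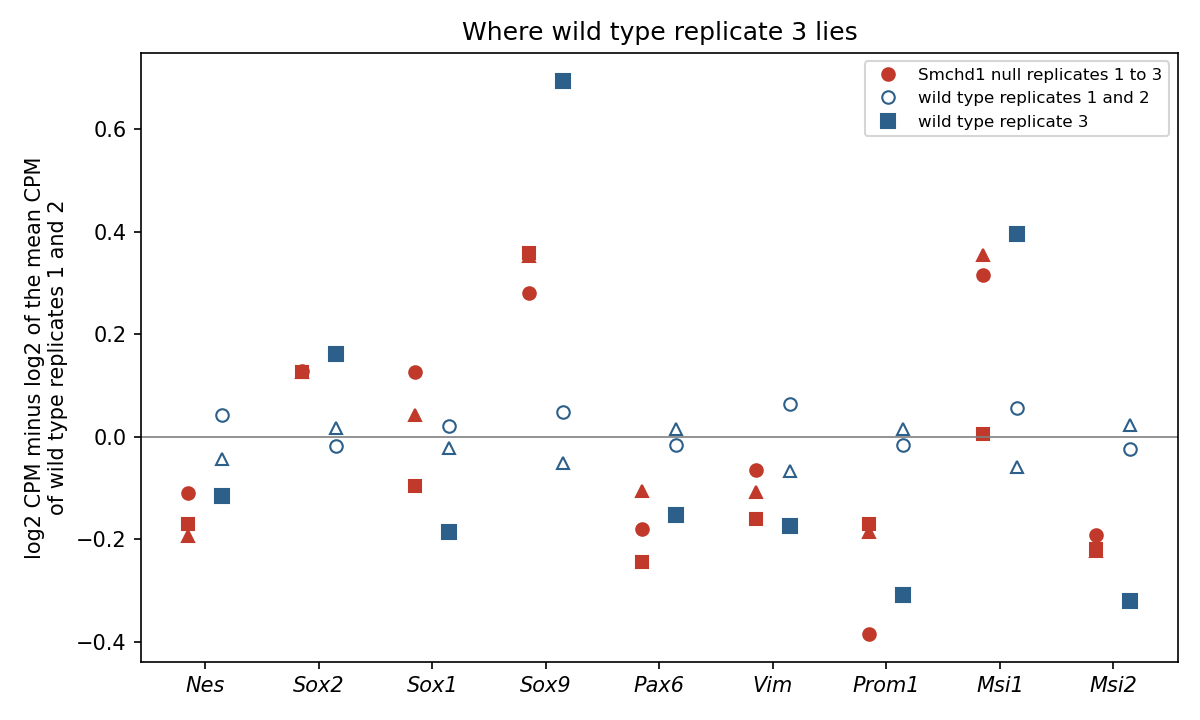
Log2 CPM of each library minus the log2 of the mean CPM of wild type replicates 1 and 2, for each member. Null libraries are red, wild type replicates 1 and 2 open blue, and wild type replicate 3 a filled blue square, which stands at 0.70 for Sox9 and -0.32 for Msi2.

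Without wild type replicate 3, 3 null and 2 wild type libraries were left, and genotype coincided fully with the range of sample names. This fit therefore cannot tell genotype from that range, here or where it is used below. There edgeR called 5 of the 9 members, but it also called 39.2% of all tested genes. It called 2 members higher, where 19.7% of tested genes were higher, and 3 lower, where 19.4% were. Sox9 was higher in null (log2 fold change 0.33 ± 0.056, edgeR adjusted p = 0.000212), as was Sox2 (0.12 ± 0.045, adjusted p = 0.0384). Msi2 was lower (-0.21 ± 0.045, adjusted p = 0.00132), as were Nes (-0.16 ± 0.0497, adjusted p = 0.0172) and Prom1 (-0.25 ± 0.077, adjusted p = 0.0178). Vim (-0.11 ± 0.054, adjusted p = 0.102), Pax6 (-0.18 ± 0.082, adjusted p = 0.0957), Msi1 (0.23 ± 0.14) and Sox1 (0.023 ± 0.082) did not pass. Sox9 had the largest of these 5 called differences. With all 6 libraries, limma-voom with sample quality weights, which lets libraries count unequally, called 4 members, where it called 36.8% of tested genes. These were Sox9 (0.28), Msi2 (-0.18), Prom1 (-0.23) and Nes (-0.15), against 0.12, -0.10, -0.18 and -0.12 in limma-voom without weights. The weighted values of these 4 lay nearer those without wild type replicate 3, so they are not given as separate support.

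The same comparison within the 4 libraries named 11 to 14, where wild type replicate 3 is the sole wild type library and is assumed to vary like the null ones, turned the sign of Sox9. There Sox9 had a log2 fold change of -0.36 ± 0.072 (edgeR adjusted p = 0.00213), and it was the sole member called, where 2.55% of tested genes were called and 1.69% were called lower. Sox2 (-0.035 ± 0.064), Msi2 (0.11 ± 0.063), Prom1 (0.065 ± 0.12), Vim (0.061 ± 0.068) and Msi1 (-0.16 ± 0.20) also had the opposite sign there without passing. Nes (-0.044 ± 0.064), Pax6 (-0.024 ± 0.13) and Sox1 (0.21 ± 0.13) kept theirs. The p of Sox9 there rests on 1 wild type library, while the wild type libraries had a coefficient of variation of 29.8% for this gene. A fit with the sample-name range as a term takes up the difference of wild type replicates 1 and 2, so it again sets the null libraries against wild type replicate 3 alone and is no second test. It gave -0.36 ± 0.071 for Sox9 (edgeR adjusted p = 0.0158). It called no other member, where 1.31% of tested genes were called and 0.767% were called lower.

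**Figure D4:**
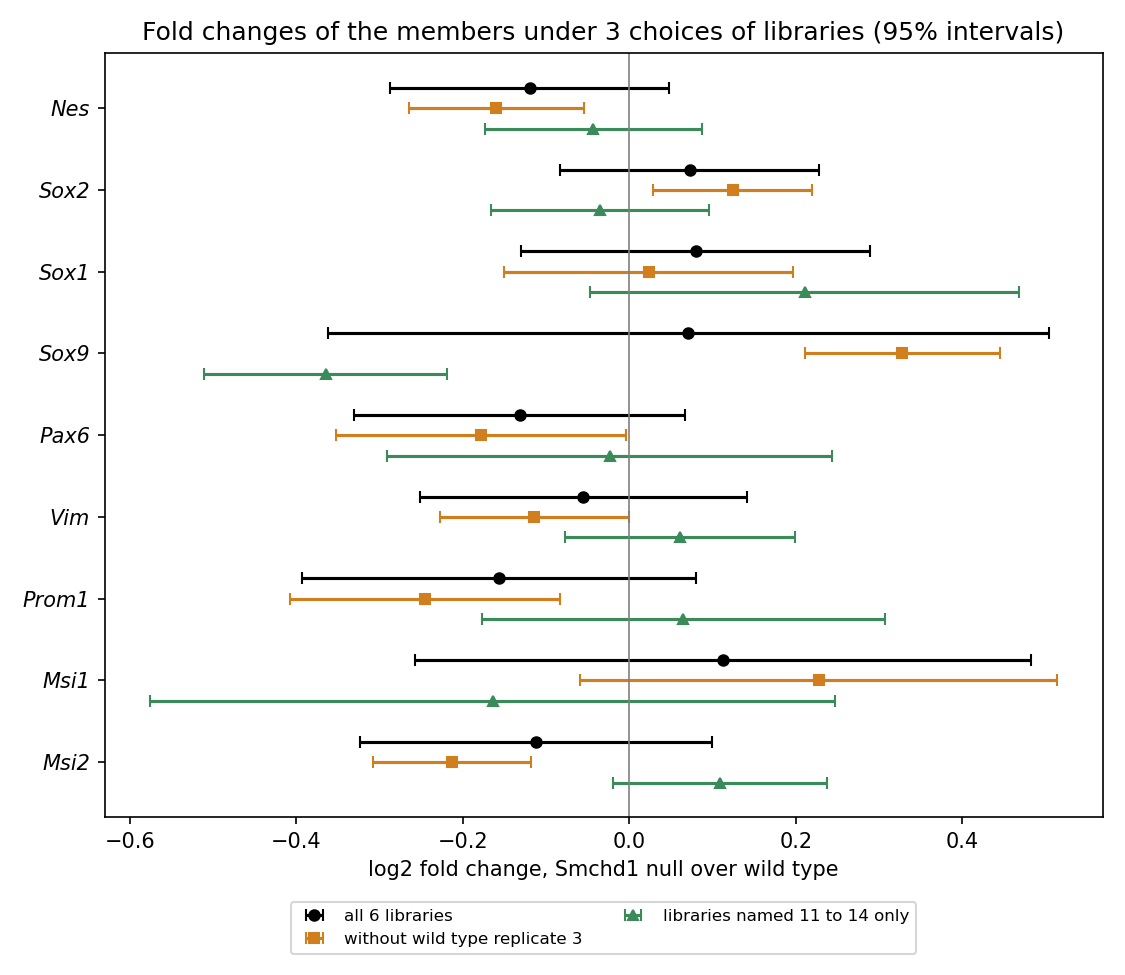
Log2 fold change of Smchd1 null over wild type for each member, with 95% intervals, from all 6 libraries (black circles), without wild type replicate 3 (orange squares) and within the libraries named 11 to 14 (green triangles). For Sox9 the last 2 values lie on opposite sides of 0, at 0.33 and -0.36, and all black intervals cross 0.

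Other members of the same gene families were taken as whole lists. Of 16 other SOX genes, 10 were tested and 0 called, and 3 had an unadjusted p under 0.05, where 18.6% of tested genes did. Sox3, the third gene of the Sox1 and Sox2 group, had 37.0 ± 3.95 CPM in null and 46.7 ± 7.74 CPM in wild type libraries (log2 fold change -0.35 ± 0.13, edgeR adjusted p = 0.227). Sox11, a factor of immature neurons and the most abundant of the list, had 340 ± 22.6 CPM in null and 439 ± 92.7 CPM in wild type libraries, where replicate 3 stood at 333 CPM. Sox12, its close relative, had 33.0 ± 6.71 CPM in null and 22.5 ± 5.58 CPM in wild type libraries. Without wild type replicate 3 edgeR called 5 of these 10 higher and 2 lower, where it called 19.7% of all tested genes higher and 19.4% lower.

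No other PAX gene reached the filter. The highest of those 8, Pax7, had 0.200 ± 0.165 CPM in null and 0.335 ± 0.313 CPM in wild type libraries, so Pax6 was the sole PAX gene with a tested level. Among 11 other intermediate filament genes, 9 were tested, and 1 was called higher, where 0.507% of tested genes were. That gene was Nefl, the light neurofilament subunit of neurons, at 2.82, 1.97 and 2.90 CPM in null libraries, against 0.543, 0.725 and 0.893 CPM in wild type libraries. Its groups did not overlap, and its log2 fold change was 1.89 ± 0.28 (edgeR adjusted p = 0.0228). Its call was lost when the range of sample names was a term (edgeR adjusted p = 0.137), within the libraries named 11 to 14 (0.0694), with the replicate block (0.0742), without wild type replicate 1 (0.159) or 2 (0.121), or without null replicate 1 (0.167) or 3 (0.174). Its log2 fold change in those 7 fits was 1.51 to 1.94. Under the stricter filter, which asks for a CPM of at least 1 in every library, Nefl was not tested. Lmnb1, a nuclear lamin and the most abundant of the list, had 334 ± 16.1 CPM in null and 336 ± 30.2 CPM in wild type libraries. The median log2 fold change of the 9 tested filament genes was 0.57, beside 0.0013 for all tested genes. Groups did not overlap for 3 of the 9, where they did not for 22.0% of tested genes. The edgeR fit without wild type replicate 3 called 5 of them higher and 0 lower, against 19.7% and 19.4% of all tested genes.

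Of 32 further genes known from neural stem cells, 30 were tested and 0 called. Their median log2 fold change was -0.11, beside 0.0013 for all tested genes. Of the 30, 7 had an unadjusted p under 0.05, where 18.6% of tested genes did, and 11 had groups that did not overlap, where 22.0% of tested genes had. Hes1, a Notch target that holds back neuronal differentiation, had 33.6 ± 2.54 CPM in null and 43.7 ± 5.02 CPM in wild type libraries (log2 fold change -0.39 ± 0.099, edgeR adjusted p = 0.137). Cd24a, a surface protein that rises as progenitors commit to neurons, had 120 ± 1.71 CPM in null and 176 ± 36.8 CPM in wild type libraries (-0.56 ± 0.14, edgeR adjusted p = 0.137). Lhx2, a homeobox factor of forebrain progenitors, had 31.8 ± 0.255 CPM in null and 38.0 ± 1.78 CPM in wild type libraries (-0.26 ± 0.067, edgeR adjusted p = 0.139). Tnc, a matrix protein of the stem cell niche, was the most abundant, at 2959 ± 110 CPM in null and 3268 ± 292 CPM in wild type libraries. Without wild type replicate 3 edgeR called 4 of the 30 higher and 11 lower, where it called 19.7% of all tested genes higher and 19.4% lower.

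The neural stem cell label was then set against markers of other cells. Microglial markers summed to 1.97 to 2.48 CPM in null and 1.86 to 3.03 CPM in wild type libraries over 8 genes, and Itgam, C1qa and Tmem119 had no count in any library. Endothelial markers summed to 2.21 to 2.94 CPM in null and 2.40 to 3.67 CPM in wild type libraries over 6 genes, with Cdh5 at 0. Fibroblast and pericyte markers summed to 3.47 to 4.04 CPM in null and 1.82 to 6.15 CPM in wild type libraries over 7 genes, with none at 0. Pluripotent cell markers summed to 4.77 to 6.47 CPM in null and 4.65 to 6.98 CPM in wild type libraries over 6 genes, almost all of it Esrrb, with Zfp42 and Dppa5a at 0. Red cell markers summed to 0.893 to 1.36 CPM in null and 0.775 to 0.895 CPM in wild type libraries over the 5 of 6 found in the files, with Hbb-bs at 0.

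Lineage markers that neural stem cells can also express were present. The 12 neuronal genes summed to 1475 to 1511 CPM in null and 1581 to 1609 CPM in wild type libraries, most of it Map2, a microtubule-associated protein, at 981 ± 16.2 CPM in null and 1084 ± 23.1 CPM in wild type libraries. Rbfox3, which marks mature neurons, was at 0.571 ± 0.317 CPM in null and 1.05 ± 0.243 CPM in wild type libraries, while Elavl3, an RNA-binding protein of neurons, was at 16.6 ± 1.19 CPM in null and 11.9 ± 6.28 CPM in wild type libraries. The median log2 fold change of the 11 tested neuronal genes was 0.046. Without wild type replicate 3 edgeR called 4 of them higher and 4 lower, where it called 19.7% of tested genes higher and 19.4% lower. The 8 astrocyte genes summed to 425 to 451 CPM in null and 457 to 498 CPM in wild type libraries. Their median log2 fold change was 0.37, beside 0.0013 for all tested genes. The edgeR fit without wild type replicate 3 called 5 of the 8 higher and 2 lower, against 19.7% and 19.4% of all tested genes. Glul, glutamine synthetase, was at 95.5 ± 4.92 CPM in null and 131 ± 16.8 CPM in wild type libraries (log2 fold change -0.46 ± 0.096, edgeR adjusted p = 0.0968). Gja1, a gap junction protein, was at 54.0 ± 1.91 CPM in null and 85.9 ± 23.4 CPM in wild type libraries (-0.68 ± 0.18, edgeR adjusted p = 0.169). Gfap, the astrocyte filament, was near the floor, at 0.615 ± 0.0082 CPM in null and 0.417 ± 0.585 CPM in wild type libraries. The 12 oligodendrocyte lineage genes summed to 1496 to 1588 CPM in null libraries, to 1691 CPM in wild type replicate 3, and to 1172 to 1271 CPM in wild type replicates 1 and 2. No gene of these 3 lists was called with all 6 libraries. Without wild type replicate 3, 10 of 11 tested oligodendrocyte lineage genes were called higher, where 19.7% of all tested genes were. That fit cannot tell genotype from the range of sample names. In the oligodendrocyte lineage sum wild type replicate 3 lay above the null libraries, and these above wild type replicates 1 and 2. Sox9 and Sox2 had the same order. The null libraries lay between wild type replicate 3 and both other wild type libraries, in either direction, for 20.3% of all tested genes. The part of these lineage genes in the values of Sox9 and Sox2 was not tested. In bulk RNA, fewer cells of a type and less RNA per cell cannot be told apart.

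As a description of pattern, the tested gene most like each member in log2 CPM over the 6 libraries was sought among 12179 genes. For Sox9 it was Mmaa, for Sox2 Msrb2 and for Msi2 Nfkb1. With only 6 libraries such matches are common: 229 genes had a Pearson r above 0.95 with Sox9, 481 with Sox2 and 519 with Msi2, against 18 with Sox1, 27 with Msi1 and 37 with Vim. All of these values share the same libraries, depth and scaling.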

How the data were processed

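Per the submitters' processing notes, the tools used were limma 3.22.0, edgeR 3.8.2, featureCounts and CASAVA 1.8.2, with mm10 as the build. The aligner, annotation and handling of multi-mapping reads were not given in the sources used here. The deposited values are raw counts per Entrez gene with a gene length, per the file headers. Libraries were made with the TruSeq RNA v2 kit, per the labels' protocols, which does not mark strand. Symbols and coordinates came from RefSeq GRCm38.p6, which matched 25275 of 27179 IDs (93.0%).

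The test was that of edgeR 4.0.16 (R 4.3.3) on these counts: filterByExpr, TMM scaling and a robust quasi-likelihood fit with genotype as its term, over 14207 genes, two-sided, with Benjamini-Hochberg adjustment at 0.05. Fold changes are null over wild type, and RPKM uses the deposited length. The fit was also run on counts simulated from its own model. No simulated library was made to depart from the others as wild type replicate 3 did. That run therefore cannot show how the test handles this library. The 19 alternatives used DESeq2 1.42.0, limma-voom 3.58.1, other scalings and filters, and left-out libraries. Wild type and null replicates numbered alike had correlations of 0.001, 0.02 and -0.06 in their deviations, so no pairing by number was seen. With 3 libraries a group, a weak pairing could be missed. No 2 libraries of a group agreed within sampling noise (median chi-square per gene at least 0.901, where noise gives 0.455). Counting errors cover counting only. The members and gene lists were chosen with earlier results of these data known. Named genes are all members, the 3 smallest p-values, any called gene and the most abundant gene of a list, and the nearest pattern of a member. Some genes of this rule are left out of the text. Marker genes named as being at 0 were chosen after their values were seen.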

Additional observations from a re-analysis of the deposited data

How the results depend on the processing

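The count of called members was 0 with edgeR in all 6 libraries and moved to 4 with limma-voom with sample quality weights, 1 with the sample-name term and 1 within the libraries named 11 to 14. It was 0 to 5 when a library was left out, with 5 only without wild type replicate 3. In that fit genotype and the range of sample names cannot be told apart. The count of called genes was 82, and moved to 398 with DESeq2, 145 with limma-voom, 5229 with quality weights, 222 without a filter, 28 with the stricter filter, 186 with the sample-name term and 376 within the libraries named 11 to 14. It was 30 to 5676 when a library was left out (5676 without wild type replicate 3; 39 and 45 without wild type replicate 1 or 2; 30, 43 and 34 without null replicate 1, 2 or 3). The replicate block gave 54 called genes and changed no member's call. No pairing of the libraries by number was seen.

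Signs turned with the sample-name term for Sox2 (-0.034), Sox9 (-0.36), Vim (0.062), Prom1 (0.066), Msi1 (-0.16) and Msi2 (0.11). Within the libraries named 11 to 14 they turned for the same genes, at -0.035, -0.36, 0.061, 0.065, -0.16 and 0.11. Leaving out a library gave -0.069 to 0.33 for Sox9, negative without wild type replicate 1 or 2, and -0.11 to 0.0055 for Vim, positive without wild type replicate 1. The sample-name term and the libraries named 11 to 14 both set the null libraries against wild type replicate 3 alone. The cause was not tested. Of 171 member values under alternatives, 147 kept their sign and their side of the threshold, 15 turned and 9 kept their sign and passed the threshold where the value from all 6 libraries had not. With the 2 of Sox9 that turned and also passed, 11 were past the threshold. Depth limits Msi1 most, with 83 counts in wild type replicate 3. Depth does not limit Nes or Vim, whose intervals rest on the spread between libraries.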
